A study of Rattus norvegicus with 2 samples.

Results

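The renin-angiotensin system of rat lung was described from the 6 genes *Ace*, *Agt*, *Agtr1a*, *Agtr1b*, *Agtr2* and *Mas1*. They were taken by name: every probe set, apart from the array's controls, whose platform annotation gave exactly 1 gene symbol and that symbol was 1 of the 6. This found all 6 genes, among 14217 genes in all, and 9 probe sets among 31042. The rule itself uses no measured value. Total RNA from rat lung was hybridised to 2 Affymetrix Rat Genome 230 2.0 arrays, 1 prepared by experimenter 2 and 1 by experimenter 1, to ask how reproducible such profiles are. A probe set on this array is a group of short probes for 1 transcript. The labels give neither strain, sex, age and number of animals, nor any treatment, nor whether a single lung or RNA extract was shared by both preparations. Neither experimenter has a second array, so no difference below has a replicate error or a test, and none can be assigned to the lung, the RNA or the handling.

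In the renin-angiotensin system, angiotensinogen, the product of *Agt*, is cut to angiotensin I, and angiotensin-converting enzyme, the product of *Ace*, trims this to the vasoconstrictor angiotensin II. Angiotensin II acts mainly through the type 1 receptor, which rats and mice encode in a pair of closely related genes, *Agtr1a* and *Agtr1b*, and through the type 2 receptor *Agtr2*. *Mas1* encodes the receptor for angiotensin-(1-7), a peptide formed when other peptidases trim angiotensin I or II. The lung is known as a main site of conversion of circulating angiotensin I, because its capillary endothelium carries angiotensin-converting enzyme on its surface, whereas circulating angiotensinogen comes chiefly from the liver.

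The promoters shown are that of *Ace*, whose probe sets gave the brightest signal of the 6 genes, and those of *Agtr1a* and *Agtr1b*, the receptor pair whose brightest probe sets lay far apart. Each is 300 bases, 250 before and 50 after the annotated start, written 5′ to 3′ on the gene's strand, from RefSeq on build GRCr8. *Ace* is at chr10:91409879-91410178 on the plus strand, *Agtr1a* at chr17:34435383-34435682 on the minus strand and *Agtr1b* at chr2:104849213-104849512 on the minus strand. Capitals mark matches, on either strand, to TATAA or to GGGCGG, the letters of the TATA box and of the GC box; overlapping matches run together. These motifs were chosen after the sequences had been seen.
Ace: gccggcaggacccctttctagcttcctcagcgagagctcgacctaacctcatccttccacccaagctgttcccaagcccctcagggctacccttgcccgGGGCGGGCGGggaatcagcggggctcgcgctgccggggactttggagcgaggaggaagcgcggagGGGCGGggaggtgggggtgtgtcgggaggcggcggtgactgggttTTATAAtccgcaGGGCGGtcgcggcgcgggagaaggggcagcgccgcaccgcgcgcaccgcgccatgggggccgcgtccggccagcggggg
Agtr1a: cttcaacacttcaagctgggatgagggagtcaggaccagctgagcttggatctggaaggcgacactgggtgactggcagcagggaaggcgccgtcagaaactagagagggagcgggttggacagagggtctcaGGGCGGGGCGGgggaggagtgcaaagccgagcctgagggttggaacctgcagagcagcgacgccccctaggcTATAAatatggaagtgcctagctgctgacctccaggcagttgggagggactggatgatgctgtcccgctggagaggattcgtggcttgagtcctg
Agtr1b: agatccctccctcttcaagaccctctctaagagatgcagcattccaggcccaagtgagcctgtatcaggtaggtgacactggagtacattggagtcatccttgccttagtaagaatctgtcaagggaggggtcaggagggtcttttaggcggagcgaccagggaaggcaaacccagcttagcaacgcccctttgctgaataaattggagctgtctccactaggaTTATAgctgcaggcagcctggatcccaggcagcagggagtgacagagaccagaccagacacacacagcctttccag
The *Ace* window was 72.3% G or C with 34 CpG dinucleotides, against a median of 51.7% and 7 CpG over 33469 rat promoters of this length. It held 4 matches to GGGCGG, the nearest at -29 from the start, and 2 overlapping matches to TATAA at -41 and -40. The *Agtr1a* window was 60.7% G or C with 11 CpG, and held 2 overlapping matches to GGGCGG at -117 and -112 and 1 to TATAA at -45. The *Agtr1b* window was 53.7% G or C with 3 CpG, and held 1 match to TATAA, at -26 on the opposite strand, and 0 to GGGCGG. Of all these promoters, 26.2% held TATAA and 33.1% held GGGCGG on either strand. Promoter sequences were matched for 5 of the 6 genes. Those of *Agtr2* and *Mas1* were 40.3% and 54.3% G or C with 3 CpG each. The *Agtr2* window held 1 match to TATAA, at -37, and 0 to GGGCGG, and the *Mas1* window held 0 to either. A match describes the letters in this window and not a site in use.

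On both arrays *Ace* was bright, *Agtr1a* was bright by 1 of its 2 probe sets, *Agt* was below the median signal, and *Agtr1b*, *Agtr2* and *Mas1* were near the low end of the range. Signals are log2 RMA values, which ran from 2.26 to 14.49 with a median of 6.28 on the array of experimenter 2 and from 2.31 to 14.51 with a median of 6.32 on that of experimenter 1. Each probe set binds with its own strength, so its place in the array's range, given below as the percentile of its mean over both arrays among all 31042 probe sets, describes signal and not the number of transcripts. Of the 9 probe sets, 3 lay at or above the median of 6.31 and 6 below it. No detection call was used, so a low signal has no stated limit of detection. In whole lung, fewer cells of a type and less RNA per cell cannot be told apart.

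**Figure D1:**
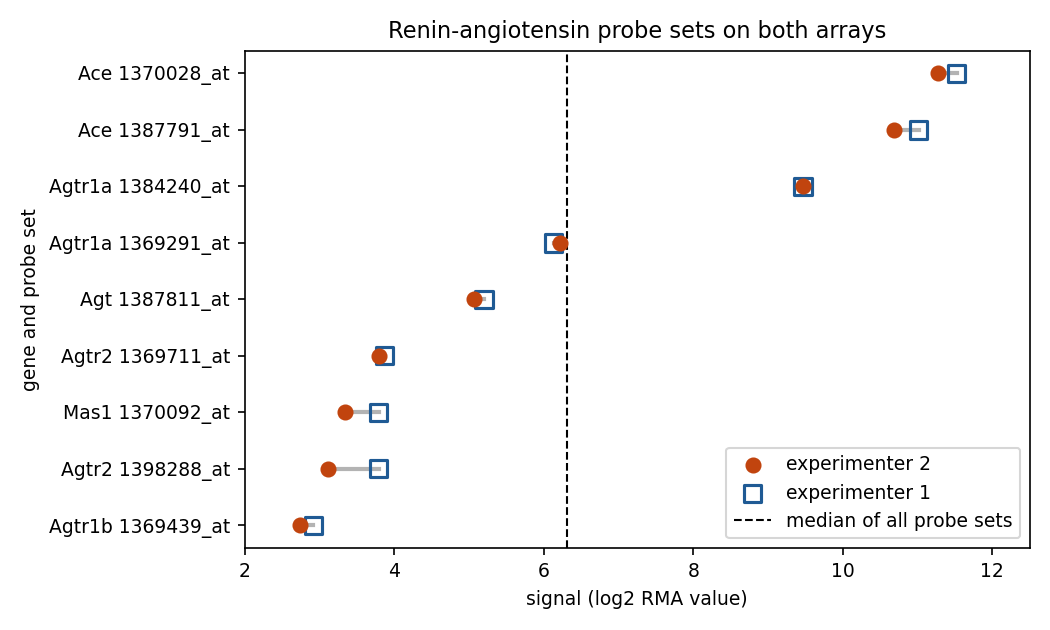
Signal of the 9 renin-angiotensin probe sets as log2 RMA values, with a filled circle for the array of experimenter 2, an open square for that of experimenter 1 and a dashed line at the median of all probe sets, 6.31. Both *Ace* probe sets and 1 *Agtr1a* probe set lie right of the line on both arrays, and the other 6 probe sets lie left of it.

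*Agt*, the precursor of all angiotensin peptides, was measured by 1 probe set, 1387811_at. It gave 5.07 on the array of experimenter 2 and 5.20 on that of experimenter 1, at percentile 34.9. A signal in the lower part of the range was thus seen on both arrays. The difference was -0.13, experimenter 2 minus experimenter 1, as are all differences here. Genes made chiefly in liver lay in the same part of the range: the 10 of 11 listed liver genes that were measured had percentiles from 8.71 to 56.8 with a median of 26.7.

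*Ace* was measured by 2 probe sets. The first, 1370028_at, gave 11.27 on the array of experimenter 2 and 11.52 on that of experimenter 1, at percentile 98.1, with 575 of the 31042 probe sets brighter. The second, 1387791_at, gave 10.69 for experimenter 2 and 11.01 for experimenter 1, at percentile 96.9. Both probe sets were thus above percentile 96 on both arrays. Their mean signals lay 0.54 apart, less than the median gap of 1.4999 between the brightest and the second probe set over 4525 genes that had at least 2. Both were lower for experimenter 2, by 1.19-fold (-0.25) and by 1.25-fold (-0.32). Their differences lay 0.073 apart, against a median of 0.25 between the brightest and second probe sets of all such genes. To set a difference against others at like signal, all probe sets were put in 10 bins of equal size by their mean. The brightest bin had a median difference of -0.037 and an SD of 0.23, so both *Ace* probe sets lay below that median, by 0.21 and 0.29. Of the 3105 probe sets of that bin, 23.7% were at least as far apart in either direction as 1370028_at and 13.2% as far as 1387791_at. Differences of that size were therefore common between these arrays at this signal.

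*Ace* in lung is chiefly an endothelial gene, and markers of endothelium had a median difference below that of all genes. Of 15 listed endothelial genes 14 were measured, and 10 of them were lower for experimenter 2, against 58.7% of all genes by their brightest probe sets. Their median difference was -0.13, against -0.049 over all genes, and the range was -0.74 to 0.28. It was -0.23 with the mean over each gene's probe sets or with the second brightest. By brightest probe sets, *Calcrl*, the calcitonin receptor-like receptor, was at the low end and the 1 gene of the list at least 1.5-fold apart. *Flt1* differed by 0.18 by its brightest probe set, but by -0.66, or 1.58-fold lower, and by -0.40 by its others. The brightest gene, *Ramp2*, which encodes the co-receptor of the *Calcrl* product, gave 12.48 for experimenter 2 and 12.47 for experimenter 1. The summary over the list was a median signal of 11.20 for experimenter 2 and 11.396 for experimenter 1. Of the 14, 4 had a more negative difference than *Ace* by its brightest probe set, and 7 had a lower percentile. The range of the list in percentile was 65.03 to 99.4, and all 14 lay above the median signal on the mean of both arrays. Medians of other marker lists lay on both sides of the endothelial one. They were -0.16 for macrophages, -0.18 for mast cells, -0.25 for liver and -0.30 for heart muscle genes. The remaining lists, of cell types and organs, had medians from -0.12 to -0.038. A median below that of all genes was thus not particular to endothelium. The part of endothelial content in the difference of *Ace* was not tested.

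*Agtr1a*, the main type 1 receptor gene of rat vessels, gave discordant signals by its 2 probe sets. The brighter, 1384240_at, gave 9.47 for experimenter 2 and 9.47 for experimenter 1, at percentile 89.1. The other, 1369291_at, gave 6.22 for experimenter 2 and 6.13 for experimenter 1, at percentile 48.4. The same order was seen on both arrays. The gap between their means was 3.30 on the log2 scale, and 17.97% of the 4525 genes with at least 2 probe sets had a gap this large. Their differences were 0.0013 and 0.081. They lay in different bins of signal. In the bin of 1384240_at, 99.7% of probe sets were at least as far apart between the arrays as it was. In the bin of 1369291_at this share was 77.5%. *Agtr1a* was the 1 gene of the 6 with no probe set lower for experimenter 2.

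*Agtr1b*, the second type 1 receptor gene, had 1 probe set, 1369439_at. It gave 2.74 on the array of experimenter 2 and 2.92 on that of experimenter 1, at percentile 2.36, with 30308 probe sets brighter. This signal was close to the lowest value on each array, 2.26 for experimenter 2 and 2.31 for experimenter 1. The difference was -0.19, and 36.8% of the probe sets in the dimmest bin differed at least as much. The identifiers of the *Agtr1a* and *Agtr1b* probe sets end in a plain _at, which on this platform marks probes designed for 1 transcript. Whether probes of the pair bind each other's transcripts was not tested.

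*Agtr2*, the type 2 receptor, which is abundant in fetal tissue and restricted in the adult, had 2 dim probe sets. The probe set 1369711_at gave 3.79 for experimenter 2 and 3.87 for experimenter 1, at percentile 16.6. The probe set 1398288_at gave 3.12 for experimenter 2 and 3.79 for experimenter 1, at percentile 10.7. The probe sets were thus close on the array of experimenter 1 and apart on that of experimenter 2. The difference was -0.078 by the first and -0.67, or 1.60-fold lower, by the second, so the probe sets of this gene lay 0.60 apart. In their bin the SD of the difference was 0.26, and 1.77% of 3104 probe sets differed at least as much as 1398288_at. For 1369711_at this share was 74.4%.

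*Mas1*, the receptor for angiotensin-(1-7), had 1 probe set, 1370092_at. It gave 3.34 on the array of experimenter 2 and 3.79 on that of experimenter 1, at percentile 12.4. The difference of -0.45, or 1.36-fold lower, was matched or exceeded in either direction by 10.5% of the probe sets in its bin. No second probe set was at hand to compare.

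Set against the other components, *Ace* stood highest in signal whichever probe set was taken. Its dimmer probe set was 1.22 above the brightest other, *Agtr1a* 1384240_at, on the array of experimenter 2 and 1.54 above it on that of experimenter 1, on the log2 scale. In percentile it led by 7.79 points by the dimmer and by 9.02 points by the brighter probe set. The order of the 9 probe sets was the same on both arrays apart from *Mas1* and *Agtr2* 1398288_at, which changed places: *Mas1* was above for experimenter 2, 3.34 against 3.12, and just below for experimenter 1, 3.792 against 3.794. With single arrays there is no replicate spread with which to separate neighbours in this order.

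Of the 9 probe sets 0 differed 2-fold between the arrays, where 0.37% of all probe sets did, 0.261% higher and 0.11% lower (81 and 34 probe sets, against 105 and 21 after median centring). At 1.5-fold, 1 of 9 was lower (*Agtr2* 1398288_at) and 0 were higher, where 2.3% of all probe sets were lower, 2.05% higher and 4.35% either. Differences below 0 were found for 7 of 9 probe sets, against 58.7% of all probe sets. The median over the 9 was -0.19, against -0.052 over all. With so few probe sets, some of which share a gene, these counts describe the 6 genes and no more.

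**Figure D2:**
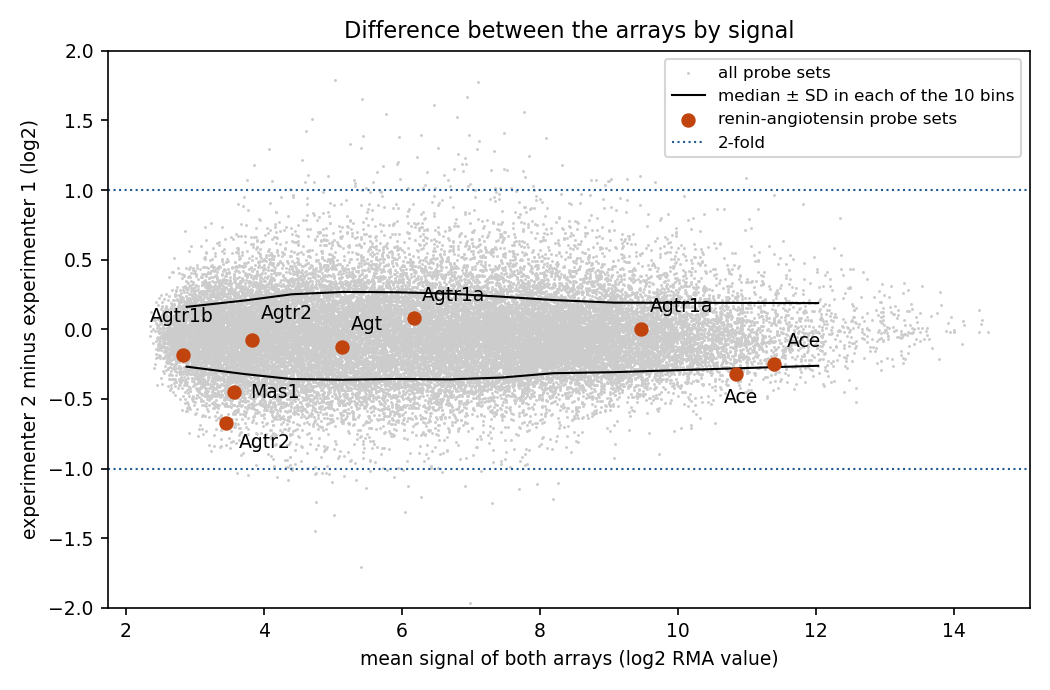
Difference between the arrays, experimenter 2 minus experimenter 1 on the log2 scale, against the mean signal of both arrays, with all 31042 probe sets in grey, the 9 renin-angiotensin probe sets in orange, black lines through the median ± SD of each of 10 bins of signal and dotted lines at 2-fold. *Agtr2* by its second probe set, at -0.67, and *Mas1*, at -0.45, lie below the lower black line, the *Ace* probe sets lie just above and just below it, and all 9 stay within 2-fold.

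The wider pathway was described with lists of 42 further genes, of which 33 were measured, each by its brightest probe set. Of these 33, 22 were lower and 11 higher for experimenter 2, where 58.7% of all genes were lower. Their median difference was -0.036, against -0.049 over all genes. At least 2-fold apart were 0 higher and 1 lower, where 0.232% of all genes were higher, 0.0422% lower and 0.274% either. Only *Ctsd*, of the 33, had a percentile as high as the brighter *Ace* probe set, and 9 of the 33 lay among the brightest 10% of probe sets. By their brightest probe sets, 16.7% of all genes lay there, and 67.2% lay at or above the median signal.

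Genes listed as coding for angiotensin-forming enzymes were mixed in signal. The activity of their products in rat was not tested. Of 7 listed genes 5 were measured, *Ace* among them, and all 5 were lower for experimenter 2, where 58.7% of all genes were lower. Their median difference was -0.25, against -0.049 over all genes. *Ctsd*, the lysosomal protease cathepsin D, gave 11.995 for experimenter 2 and 12.002 for experimenter 1, at percentile 99.03. The mast cell protease gene *Mcpt1* gave 7.37 for experimenter 2 and 7.57 for experimenter 1, and *Cma1*, mast cell chymase, gave 4.81 for experimenter 2 and 5.08 for experimenter 1. *Klk1*, a tissue kallikrein, gave 3.45 for experimenter 2 and 3.70 for experimenter 1. Mast cell markers were lower in 6 of the 8 measured of 9 listed, where 58.7% of all genes were lower. Their median difference was -0.18, with percentiles from 27.9 to 65.4. The list includes *Mcpt1*, *Cma1* and the peptidase gene *Cpa3*, so it is no separate reference for these proteases. Its other measured markers went both ways by their brightest probe sets. *Kit*, *Tpsab1* and *Tpsb2* differed by -0.40, -0.29 and -0.0050, and *Hdc* by 0.036. *Ms4a2* differed by 0.095, and by -0.21 by its second probe set. The part of mast cell content in the differences of these proteases was not tested.

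By brightest probe sets, the measured peptidases that trim or degrade angiotensins had signals above the median, apart from *Lnpep*. Of all genes, 67.2% lay at or above it. The second *Prcp* probe set lay below it, at percentile 48.5. Of 13 listed genes 11 were measured, and 9 were lower and 2 higher for experimenter 2, where 58.7% of all genes were lower. The median difference was -0.074, against -0.049 over all genes. *Anpep*, aminopeptidase N, gave 10.79 for experimenter 2 and 10.80 for experimenter 1, and *Enpep*, aminopeptidase A, gave 10.70 for experimenter 2 and 10.59 for experimenter 1. *Ctsa*, cathepsin A, gave 11.01 for experimenter 2 and 11.05 for experimenter 1. *Mme*, the membrane peptidase neprilysin, which forms angiotensin-(1-7), gave 8.82 for experimenter 2 and 9.03 for experimenter 1. *Rnpep*, aminopeptidase B, *Prcp*, prolylcarboxypeptidase, *Prep*, prolyl oligopeptidase, *Cpa3*, mast cell carboxypeptidase, and *Thop1*, thimet oligopeptidase, differed by -0.074, -0.0090, -0.12, -0.16 and -0.12. *Nln*, the oligopeptidase neurolysin, was the gene of the list with the most positive difference, 7.96 for experimenter 2 and 7.604 for experimenter 1. *Lnpep*, a membrane aminopeptidase that binds angiotensin IV, was the 1 pathway gene past 2-fold, at 4.32 for experimenter 2 and 5.36 for experimenter 1, or 2.05-fold lower. Its second probe set gave 4.67 for experimenter 2 and 4.84 for experimenter 1, a difference of -0.17, and both lay below the median signal.

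**Figure D3:**
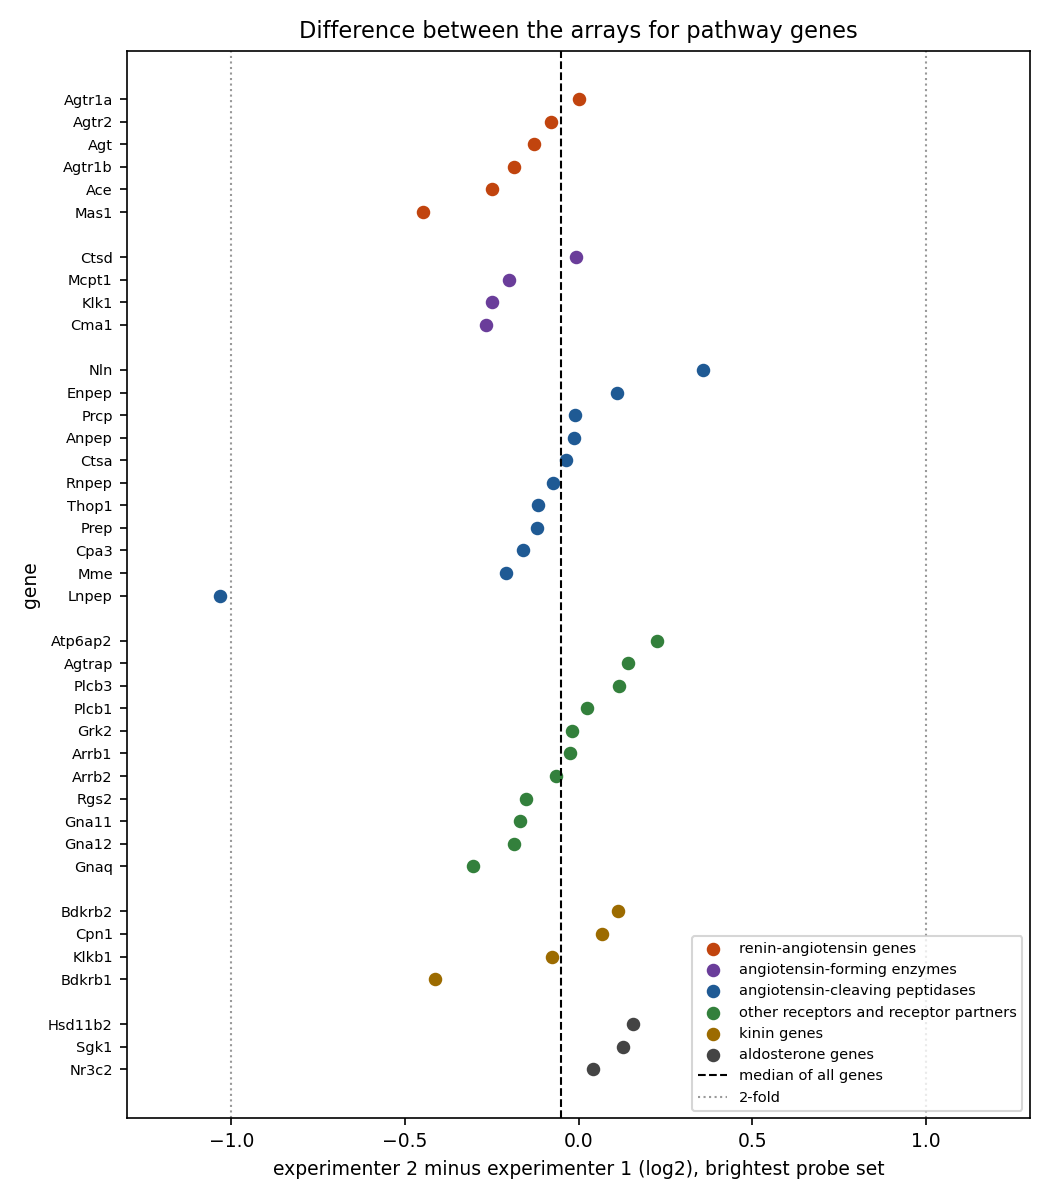
Difference between the arrays, experimenter 2 minus experimenter 1 on the log2 scale, for the 6 renin-angiotensin genes and 33 further genes of the pathway lists, each by its brightest probe set, coloured by list, with a dashed line at the median of all genes and dotted lines at 2-fold. *Lnpep*, at -1.03, is the 1 gene past a dotted line.

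Other receptors of the system and partners of the type 1 receptor ran from percentile 36.8 to 96.6. Of 12 listed genes 11 were measured, 7 lower and 4 higher for experimenter 2, where 58.7% of all genes were lower. Their median difference was -0.024, against -0.049 over all genes. By brightest probe sets, 10 of the 11 lay at or above the median signal, where 67.2% of all genes did. The second probe sets of *Arrb1* and *Gna12* lay below it, at percentiles 29.7 and 43.2. *Atp6ap2*, an accessory protein of the vacuolar proton pump, gave 10.85 for experimenter 2 and 10.63 for experimenter 1, and its second probe set was also higher, by 0.33. *Agtrap*, which binds the type 1 receptor and favours its internalisation, gave 8.15 for experimenter 2 and 8.01 for experimenter 1, and its second probe set differed by -0.048. *Arrb1* and *Arrb2*, the beta-arrestins, differed by -0.024 and -0.064, and *Grk2*, a kinase of activated receptors, by -0.019. *Gnaq*, *Gna11* and *Gna12*, alpha subunits of G proteins, differed by -0.30, -0.17 and -0.19. *Plcb1* and *Plcb3*, phospholipases C, differed by 0.024 and 0.12, and *Rgs2*, a brake on Gq signalling, by -0.15. The second probe sets of *Rgs2*, *Arrb1* and *Gna12* differed by -0.046, -0.54 and -0.48.

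Markers of cell types were ranked in the same way, which describes their signals and assigns no gene to a cell type. All 7 alveolar type 2 markers had percentiles from 97.7 to 99.99, and the 5 of 6 listed alveolar type 1 markers measured had 97.6 to 99.8. The median percentile of the endothelial list was 97.998, beside 98.1 and 96.9 for the *Ace* probe sets. Smooth muscle and pericyte genes, the cells in which *Agtr1a* is known to act in vessels, had percentiles from 38.8 to 98.6. Over the 11 genes the median percentile was 73.1 and the median difference -0.10, with 9 lower, where 58.7% of all genes were lower. Fibroblast genes had a median percentile of 97.98 and a median difference of -0.049 over 8 genes. Genes of liver, kidney, adrenal cortex and heart muscle had median percentiles of 26.7, 19.7, 11.3 and 14.2.

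**Figure D4:**
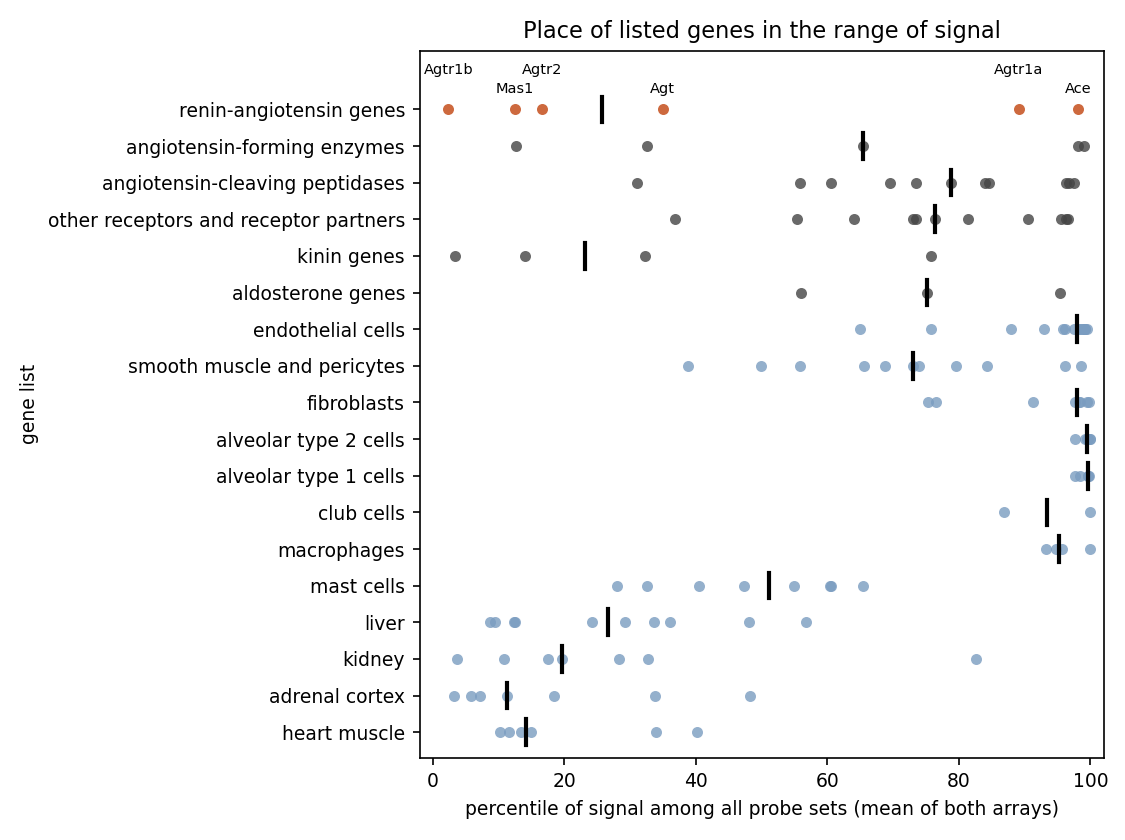
Percentile of signal among all 31042 probe sets, as the mean of both arrays, for each measured gene of the renin-angiotensin, pathway and cell type lists by its brightest probe set, with a black bar at each list's median. *Ace*, at 98.1, lies within the ranges of the endothelial, smooth muscle, fibroblast, alveolar, club cell and macrophage genes, *Mas1*, *Agtr2* and *Agt*, from 12.4 to 34.9, lie within the ranges of the liver, kidney, adrenal cortex and heart muscle genes, and *Agtr1b*, at 2.36, lies below all of the other genes plotted.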

How the data were processed

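Total RNA of rat lung was measured on 2 arrays, 1 per experimenter, and biotin-labelled cRNA was hybridised, per the labels' protocols. The deposited values are log2 RMA values, made by the authors with RMA, per the submitters' processing notes. RMA corrects background, brings arrays to a common distribution and summarises each probe set. The sources used here give neither its version nor the arrays it was run on together, and log base 2 was taken from the range of the values. The common distribution hides differences in total RNA.

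Control probe sets (57) were left out. Of the other 31042, 20826 had 1 symbol, updated through Entrez identifiers to RefSeq symbols of assembly GRCr8. Differences are experimenter 2 minus experimenter 1. Percentiles rank the mean of both arrays, and spread was described in 10 bins of equal size by that mean. A gene in a list was represented by its brightest probe set. All probe sets of the 6 genes and all measured genes of the pathway lists were eligible to be named. Of marker lists, the brightest and those at least 1.5-fold apart were eligible. *Flt1* and the mast cell markers outside the pathway lists were added once the values had been seen. With 2 arrays no likeness of patterns over samples could be measured. A size rule of 2-fold replaced a test, since each group has 1 array, and the number of arrays limits the precision. The members and lists were chosen with earlier results of these data known. Alternatives were median centring, loess (fraction 0.3), quantile normalization, other choices of probe set, a filter at the median signal, 1.5-fold, and other sets for the percentile. The computations were tested on simulated data. Python 3.11.15, numpy 2.4.6, pandas 2.3.3, statsmodels 0.14.6 and matplotlib 3.10.9 were used.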

Additional observations from a re-analysis of the deposited data

How the results depend on the processing

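No paired analysis was possible because there is a single array on each side, which also left no array to omit. Over median centring, loess and quantile normalization each member's difference kept its sign; *Ace* ran from -0.25 to -0.20 and from -0.32 to -0.27 by its 2 probe sets, *Agtr2* from -0.67 to -0.62 and from -0.078 to -0.016, *Agtr1a* from 0.0013 to 0.053 and from 0.081 to 0.13, *Agt* from -0.13 to -0.076, *Agtr1b* from -0.19 to -0.13 and *Mas1* from -0.45 to -0.38. The median differences of the receptor partner, kinin and adrenal cortex lists turned positive under all 3, at most 0.027, 0.050 and 0.024, and that of fibroblasts under centring alone (0.0028). Median centring subtracts the median over all probe sets, -0.052, from every difference. It therefore moves all genes alike, and a change of sign under it leaves a list's place relative to all genes unchanged. With the mean over probe sets or the second brightest, the medians were -0.226 and -0.229 for endothelial genes, -0.118 and -0.12 for peptidases and -0.064 and -0.048 for receptor partners; mast cell genes at or above the median signal had -0.082. The places of dim and middle probe sets depended on what they were ranked among. Among probe sets with 1 symbol, *Agt* was at percentile 27.4, *Agtr1a* at 86.4 and 39.5, and *Agtr2* 1369711_at at 12.1. With 1 probe set per gene, *Agt* was at 21.7, *Agtr1a* at 81.9, *Agtr2* at 9.64 and *Mas1* at 6.83. *Agtr2* 1398288_at was at 6.36 on the array of experimenter 2 and at 15.5 on that of experimenter 1. The lead of *Ace* in percentile, 9.02, was 7.79 with its dimmer probe set, 11.5 among probe sets with 1 symbol and 15.2 with 1 probe set per gene, the last 2 rankings chosen after seeing the data for this lead, and *Ace* stayed above percentile 96 in each ranking that scored it. At 1.5-fold, 1 member probe set was lower, and 636 of all probe sets were higher and 715 lower, against 81 and 34 at 2-fold. With probe sets at or above the median signal alone, 48 were 2-fold higher and 9 lower. Median centring, loess and quantile normalization gave 105, 103 and 98 higher and each 21 lower. Low signal limits *Agtr1b*, *Agtr2* and *Mas1*.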

Other observations

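Genes of the kinin system, whose peptide bradykinin angiotensin-converting enzyme also degrades, had low signals apart from *Cpn1*, a subunit of carboxypeptidase N, another enzyme that inactivates kinins. *Cpn1* gave 8.29 on the array of experimenter 2 and 8.23 on that of experimenter 1. The bradykinin receptor *Bdkrb2* gave 4.99 for experimenter 2 and 4.87 for experimenter 1 by the brightest of its 3 probe sets, and *Bdkrb1*, the inducible receptor, gave 3.47 for experimenter 2 and 3.88 for experimenter 1. *Klkb1*, plasma prekallikrein, gave 2.89 for experimenter 2 and 2.96 for experimenter 1. Of the 4 genes measured of 6 listed, 2 were lower and 2 higher for experimenter 2, where 58.7% of all genes were lower.

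The 3 genes of aldosterone action that were measured lay at or above the median signal, as did 67.2% of all genes. *Nr3c2*, the mineralocorticoid receptor, gave 8.23 for experimenter 2 and 8.19 for experimenter 1. *Sgk1*, a kinase induced through that receptor and through glucocorticoids, gave 10.49 for experimenter 2 and 10.36 for experimenter 1, and *Hsd11b2*, the enzyme that shields the receptor from glucocorticoids, gave 6.85 for experimenter 2 and 6.69 for experimenter 1. The 3 genes measured of 5 listed, each by 1 probe set, had a median difference of 0.13, against -0.049 over all genes. Of the 3, 0 were lower for experimenter 2, where 58.7% of all genes were lower.

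Of the 9 further pathway genes with a second probe set, 6 differed more by it than by the brightest, where 54.7% of all 4525 such genes did. The largest disagreements among these 6, chosen once the values had been seen, belonged to *Enpep*, at 0.11 by the brightest and -0.56 by the second, *Arrb1*, at -0.024 and -0.54, and *Gna12*, at -0.19 and -0.48. Disagreements at least as large were found for 8.55%, 16.1% and 41.5% of all such genes.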
